A study of Mus musculus with 9 samples.

Results

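The genes described here were the 90 highest of the lung fibroblast libraries, chosen from 55302 gene symbols. The deposited values of each symbol were averaged over the 9 libraries and ranked, the 100 highest were taken, and 10 of them were dropped by name or prefix. The 10 were CT010467.1, a feature of ribosomal RNA sequence, Polr2b, Gm45774, Lrrc61, Ccdc152, Syn3, Snx22, Sphk2, Col1a1 and the kinase gene Rps6kb2, which fell to the prefix meant for ribosomal proteins. The level therefore chose the members, and their levels are given as a description with no test. What the rule did not use was their place in the genome, their partners on the other strand and the difference between the treatment groups.

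The cells came from lungs at an early metastatic stage of mice that had carried an orthotopic breast tumor, removed by surgery before treatment. The study's methods describe female mice, 8 weeks old when injected with 4T1 cells (BALB/c) or EO771 cells (C57BL/6), both triple-negative breast cancer lines of the mouse, and the labels do not say which line these libraries came from. After tumor removal, 4 mice received PBS (labelled saline or vehicle) and 5 received doxorubicin (DOX), in 2 doses of 5 mg/kg with 5 days between doses, and 24 h passed between the second dose and the collection of the lungs. All 9 mice shared the tumor, its removal and the injections, and none was an untreated mouse without a tumor. The labels give the sorted fibroblasts as CD45- EpCAM- PDGFRa+, and the study's methods add CD31- to the gate. Each library was labelled as a biological replicate, and RNA was read by MARS-seq, a method that tags the 3′ end of polyadenylated transcripts and keeps the strand. Which strand setting was used to count reads is not given in the sources used here.

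A fibroblast of the lung lays down collagen and other matrix, holds the alveolar wall together, and carries a strong actin cytoskeleton. Doxorubicin is an anthracycline that slips between DNA bases and traps topoisomerase II, so that breaks are left in the DNA of treated tissue. A 3′ tag method counts the end of each transcript once, whatever the length of the gene, so that a level here is a normalized count of tags and is not divided by gene length. Many pairs of mammalian genes run towards each other and end in the same stretch of DNA, and there the strand alone tells their tags apart.

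The libraries held between 432322 and 1285816 reads, which gave each member at least 171 reads in every library and a counting error of at most 7.65%. The 12 fibroblast markers were all detected and summed to between 2587 and 3712 normalized counts in 8 libraries, but to 1776 in PBS replicate 4. In PBS replicate 4, 14 granulocyte markers summed to 1202 against 34.8 to 91.9 in the others, 12 pan-immune markers to 344 against 6.50 to 43.5, and 14 epithelial markers to 486 against 15.8 to 182. Granulocyte sums were 34.8 to 39.0 in PBS replicates 1 to 3 and higher, 65.8 to 91.9, in every DOX library. Epithelial sums were likewise 15.8 to 36.6 and 44.5 to 182, while pan-immune sums overlapped. Endothelial and erythrocyte sums peaked in PBS replicate 4 too (345 and 81.8), but smooth muscle and pericyte sums did not. The part of other cells in the treatment differences was not tested. CT010467.1 took 35.3% of DOX replicate 2 and between 5.74% and 16.8% of the other libraries. The counts and the median of the members' differences are given below also without PBS replicate 4 and DOX replicate 2.

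The members are shown first by the ends they lie over, because that was what nearly all of them shared. Of the 90 members, 83 (92.2%) had exons over the last 1000 genomic bases of a transcript annotated on the opposite strand in GENCODE M21 (mm10). The gene with that transcript is called the partner, and where a member had several, the protein-coding one with the longest overlap. The final 30 bases of partner transcripts are given here from GENCODE M21, read 5′ to 3′ on the partner's own strand, for the members of highest level with a common gene as partner and for members named in the treatment comparison. Capitals mark the polyadenylation signal AATAAA or its variant ATTAAA, where the 30 bases held one.
Gnas, under Gm20721, chr2:174346715-174346744, + strand: aaaatcAATAAAaattaaaaatgagcaaaa
Rpl23a, under Tlcd1, chr11:78180935-78180964, - strand: attctaaatatatacttttttcaccataaa
Lamp1, under Grtp1, chr8:13175309-13175338, + strand: gctAATAAAaagtctccttctttgtctgtc
Hspa1a, under Gm20481, chr17:34969190-34969219, - strand: gagaaaaattaaagtcagagcaAATAAAaa
Kctd10, under Myo1h, chr5:114363567-114363596, - strand: aAATAAAcgttaaactctgcttctactcac
Ilk, under Taf10, chr7:105742896-105742925, + strand: ctgtcacAATAAAgtttattatgaaaacag
Ctnnb1, under Ulk4, chr9:120960478-120960507, + strand: tggttcagaATTAAActtttaattcattca
Nr1d1, under Thra, chr11:98767932-98767961, - strand: cctgtctcaaatccaatagttcacagctga
Chpf2, under Smarcd3, chr5:24594366-24594395, + strand: ctcAATAAAtaccaactactctttttcctt

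The 30 bases of Gnas and Hspa1a lay outside the span of the member, whose exons covered earlier bases of the same window, and those of the other 7 partners lay within it. Over all 81 partner ends that could be read, 71 lay wholly within the span of the member and 7 outside it. The signal AATAAA stood in 41 of the 81 and ATTAAA in a further 9, together 61.7%, against 61.7% of the ends of 21333 protein-coding genes. On the other strand of the same bases, the strand of the member, either motif was found in 3 of 81 windows (3.70%). The share was 6.96% over the same 21333 genes, which are not all of the protein-coding genes annotated. A match of these letters is a description, and the ends under the members held the signal about as often as any coding gene.

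The share of genes that lay over an opposite-strand end fell with the level of the gene. It was 92.0% among ranks 1 to 100, 90.5% among ranks 101 to 250 and 80.7% among ranks 251 to 500. From there it fell to 64.0% for ranks 501 to 1000, 46.0% for ranks 1001 to 2000, and 14.2% for the lowest ranks, 8001 to 17428. Among the 2578 genes that passed the filter of the treatment test and were found in the annotation, 54.9% lay over such an end, and 23.3% of the 17138 annotated symbols above 0 did. The same held for coding genes alone, with 91.4% of 70 coding members against 52.4% of 2161 coding genes that passed the filter. These shares are descriptions across genes, without a test, since genes are not replicates and overlap was compared after ranking by level. Window length changed the count of members little, to 81 at 500 bases, 84 at 2000 bases and 85 over the whole opposite gene. Among the genes tested the share rose from 52.4% at 500 bases to 57.9% at 2000 bases and 66.8% over the whole opposite gene.

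**Figure D1:**
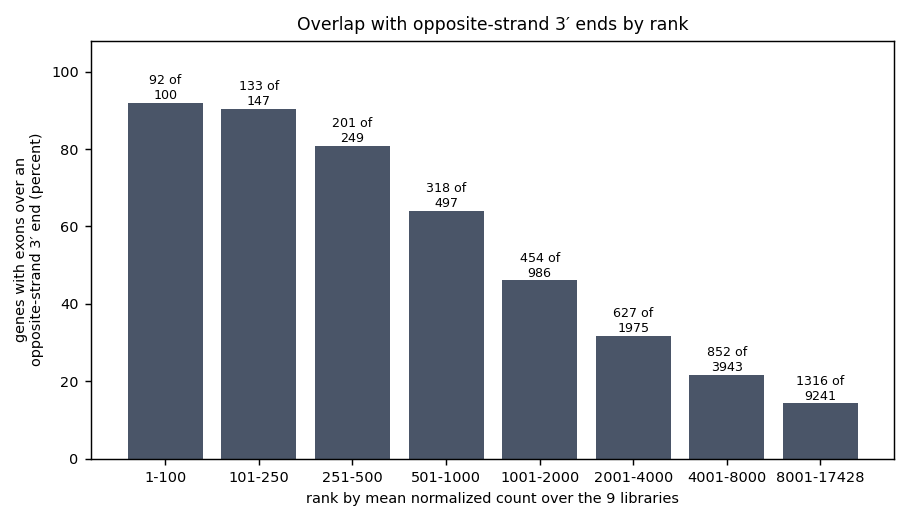
The bars show the percent of genes with exons over the last 1000 bases of an opposite-strand transcript, in bins of rank by mean normalized count over the 9 libraries, with the counts above each bar. The share falls from 92.0% in the first bin to 14.2% in the last.

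Most members and partners ran towards each other, tail to tail. In 74 of the 83 pairs the overlap held both ways, so that the partner's exons also lay over the last 1000 bases of the member. The overlap had a median of 541 bases, covered the whole window for 26 members and was at least 200 bases for 70. The shortest was 4 bases, of Lyl1, a transcription factor gene of blood cells, with Nfix, a transcription factor of the nuclear factor I family. Coding genes made up 70 of the members and 81 of the 83 main partners. The other members were 15 genes annotated as antisense RNAs, all with a partner, 2 gene models of the class TEC, which still await an experiment, a lincRNA, a bidirectional promoter RNA and a miRNA.

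Partners were nearly always the lower of the pair as deposited. Because the strand setting of the count is not given, reads of a member and of its opposite-strand partner cannot be told apart here, and the values printed for the pair could be exchanged if the opposite setting had been used. Normalized counts averaged over the 9 libraries had a median of 1187 for the members with a partner and 20.3 for the partners, and 81 of 83 partners were lower than their member. Selection of the members by level bears on this difference. The median ratio of member to partner was 85.8, and 35 partners had a mean under 10 while 18 reached 100. Icam4, Rmrp and Gm10840 were listed at 0 in every library. Ctsa, the partner of Pltp, was one of the 2 partners above their member, and both of these were themselves members.

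**Figure D2:**
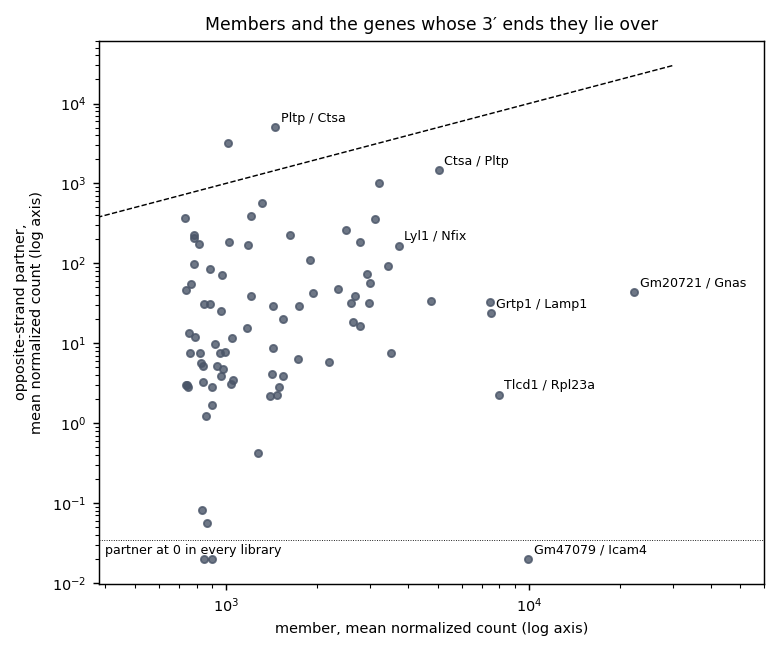
Each point is a member and its main partner, with the mean normalized count over the 9 libraries of the member on the x axis and of the partner on the y axis, both on log axes. Of the 83 points, 81 lie under the dashed line of equal level, and the 3 partners listed at 0 are drawn under the dotted line.

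The highest member was Gm20721, a coding gene model on the minus strand of chr2:174330319-174346712, with exons over 606 bases at the end of Gnas, the gene of the stimulatory G protein alpha subunit. Gm20721 had 24129, 23569, 28394 and 26724 normalized counts in the PBS libraries and 20741, 17891, 22440, 20289 and 16420 in the DOX libraries. Gnas itself averaged 43.6, and Gm20721 was 511 times as high. Every DOX library lay under every PBS library for Gm20721.

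Actb, the gene of cytoplasmic beta actin, came next, and it was one of 7 members over no opposite-strand end. It lies on the minus strand of chr5:142903115-142906754, and the nearest opposite-strand end, of Fscn1, was 63798 bases away. Actb had 18384, 19172, 22342 and 25166 normalized counts under PBS and 17105, 13577, 15671, 25706 and 40762 under DOX. The DOX libraries spread on both sides of the PBS libraries, with DOX replicate 5 the highest of all 9. Actb was the only member of a list of 45 genes of the actin cytoskeleton and contractile proteins.

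The antisense RNA Gm47079, on the minus strand of chr9:21028307-21032357, averaged 9977 normalized counts and ranged from 8368 to 12628 over the libraries. It covered the whole 1000 bases at the end of Icam4 and 511 bases at the end of Icam1, both adhesion molecules of the immunoglobulin family. Icam4 was listed at 0 and Icam1 averaged 14.5. Tlcd1, a membrane protein gene on the plus strand of chr11:78176711-78181909, averaged 7958 and ranged from 4185 to 9916. It lay over 978 bases at the end of Rpl23a, a protein of the large ribosomal subunit, which averaged 2.27 normalized counts.

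Grtp1 lies on the minus strand of chr8:13172022-13200620, over 177 bases at the end of Lamp1, a major glycoprotein of the lysosome membrane. Grtp1 had 8046, 8334, 8081 and 9189 normalized counts under PBS and 6998, 6240, 7364, 6438 and 6625 under DOX. Its DOX libraries all lay under its PBS libraries, and Lamp1 averaged 23.8 over both. Gm20481 lies on the plus strand of chr17:34969912-34972136, over the end of Hspa1a, the inducible heat shock protein 70. Gm20481 had 6545, 6065, 8457 and 7594 under PBS and 12983, 5270, 7729, 6929 and 5630 under DOX. DOX replicate 1 held the highest value and DOX replicate 2 the lowest, so the groups overlapped, and Hspa1a averaged 32.8.

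Ctsa and Pltp form a pair in which both genes were members. Ctsa encodes the lysosomal protease cathepsin A and Pltp a protein that moves phospholipids between lipoproteins. Ctsa, on the plus strand of chr2:164832873-164841032, had 5807, 4019, 4055 and 5516 normalized counts under PBS and 5081, 4303, 3437, 6848 and 6383 under DOX. Pltp, on the minus strand of chr2:164839518-164857711, had 949, 1095, 1334 and 1716 under PBS and 1167, 1457, 1307, 2221 and 1873 under DOX. Ctsa stood above Pltp in all 9 libraries, and the treatment groups overlapped for both.

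Ltbp3, on chromosome 19, encodes a matrix protein that binds latent TGF-beta. Ltbp3 had 1110, 1058, 1262 and 1146 normalized counts under PBS and 880.6, 855.5, 991.8, 1005 and 846.8 under DOX. Every DOX library of Ltbp3 lay under every PBS library.

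A further 12 of the 20 highest members lay between means of 2620 and 4762 normalized counts, and each had a partner. Myo1h, an unconventional myosin gene, averaged 4762 over Kctd10, an adaptor of cullin ubiquitin ligases, which averaged 34.0. Lyl1 averaged 3722 over Nfix at 165, Gm26619 3516 over Gm10260 at 7.48, and Map3k12, a kinase of the JNK pathway, 3437 over the RNA-binding gene Pcbp2 at 92.4. Taf10, a subunit of the general transcription factor TFIID, averaged 3112 over Ilk, the integrin-linked kinase, at 360. Chid1 averaged 2986 over the tetraspanin gene Tspan4 at 56.0, and Gm44170 averaged 2980 over Sec61a1, the channel of the endoplasmic reticulum membrane, at 31.9. Tsc2 averaged 2916 over Pkd1 at 73.7, the genes of tuberin and polycystin 1, which are textbook neighbours that end together. 4930533K18Rik averaged 2778 over Bicc1 at 16.2, and Jmjd8 2763 over the ubiquitin ligase gene Stub1 at 187. Phykpl averaged 2664 over Hnrnpab at 39.3, and Gm21691 2620 over Mylk, the myosin light chain kinase, at 18.4. In all 12 pairs the partner was the lower one, Ilk, Mylk and Sec61a1 included.

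**Figure D3:**
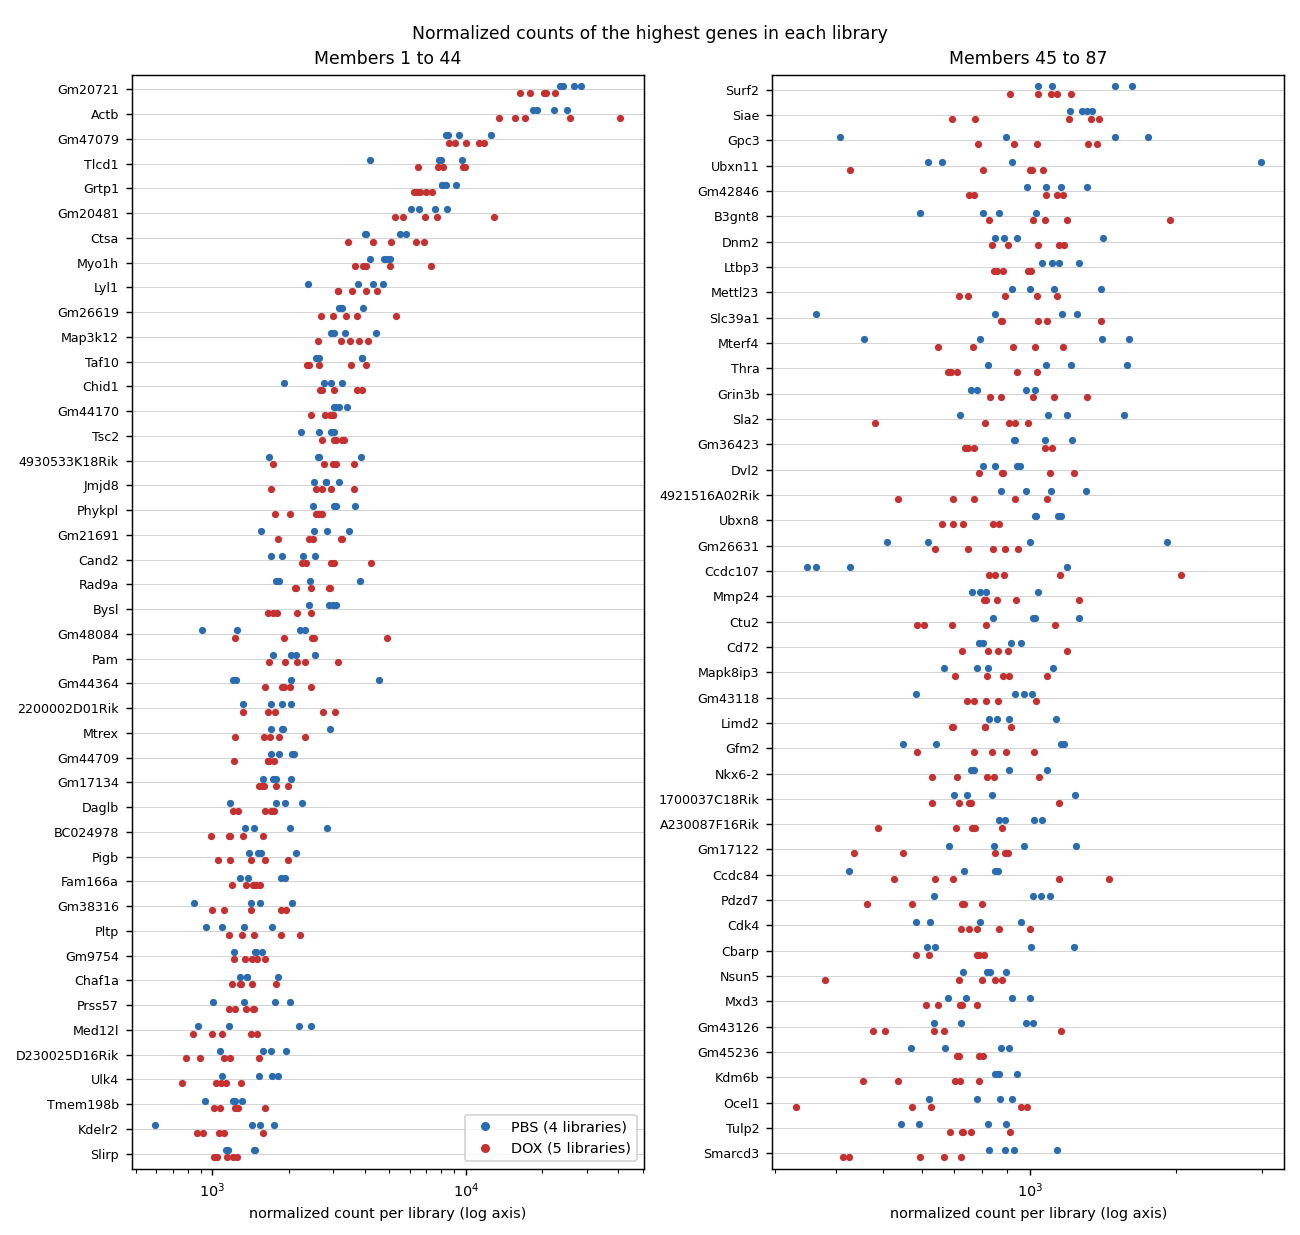
Each row is one of 87 members in order of its mean, each point is a library (4 PBS libraries in blue, 5 DOX libraries in red), and the x axis is the normalized count on a log axis. The members run from Gm20721 at a mean of 22289 to Smarcd3 at 734, and in most rows the blue and red points overlap.

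Further pairs are given by the role of the partner, a grouping made after the pairs were known. Partners that bind or make RNA and protein were Rpl32 under Cand2, Rps25 under Ccdc84, Mrps34 under Mapk8ip3, Ptbp1 under Gm17134, Srsf2 under Mettl23, Snw1 under Slirp, Supt5 under Gm44709, and Rmrp, the RNA of RNase MRP, under Ccdc107. Among these Rps25 was the highest, with a mean of 175, and Mrps34, of the mitochondrial ribosome, had 0.0569. Rpl32, of the large ribosomal subunit, averaged 32.1, and each of the 3 stood across from a gene of the 90 highest.

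Partners of adhesion, cytoskeleton and matrix were Rac1 under Daglb, Tubb4b under Fam166a, Coro1c under Gm17122, Cdc42bpb under A230087F16Rik, Ctnnb1 under Ulk4, Lama2 under Gm48084, Fstl3 under Prss57, Mmp19 under Tmem198b, Sned1 under Mterf4, Igsf10 under Med12l, Piezo1 under Ctu2, Tesk1 under Cd72 and Sh3bgrl3 under Ubxn11. Enzymes that extend glycan chains were B3gnt9 under D230025D16Rik and Chpf2 under Smarcd3. Their means ran from 0.418 for Ctnnb1, the gene of beta-catenin, to 572 for B3gnt9. Lama2, a laminin chain of basement membranes, averaged 5.88 normalized counts and the antisense RNA Gm48084 across from it 2193.

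Partners of the secretory route and the lysosome were Yif1b under 2200002D01Rik, Surf4 under Surf2, Tmed1 under Dnm2, Rab5if under Sla2 and Ccpg1 under Pigb. Partners of metabolism and lipids were Acadvl under Dvl2, Cox5a under Gm26631, Bckdha under B3gnt8, Pdxk under 4921516A02Rik, Pnp under Gm38316, Prelid1 under Mxd3, Plpp1 under Mtrex, Pitpnb under Gm43118, Itpkc under BC024978, Inpp5a under Nkx6-2, Gde1 under Gm45236 and Dhdh under Tulp2. In the first group the highest were Tmed1 with a mean of 187 and Surf4 with 171. In the second Plpp1 had 112, and the mitochondrial enzyme Acadvl had 5.16.

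Partners of growth control and transcription were Ccnd3 under Bysl, Ccnd2 under Gm43126, Stk11 under Cbarp, Ppp1ca under Rad9a, Mxd4 under Gm42846, Zmynd11 under Gm36423, Nr1d1 under Thra, Nr2f6 under Ocel1, Tbrg1 under Siae, Fbxw8 under Gm9754, Ubxn6 under Chaf1a and Pom121 under Nsun5. Ppp1ca, a catalytic subunit of protein phosphatase 1, had 261 and Stk11, the kinase LKB1, had 225. Other pairs were Tspan31 under Cdk4, Tmem259 under Grin3b, BC029722 under Mmp24, Gm10840 under Limd2, Naa60 under 1700037C18Rik, Lzts2 under Pdzd7 and Kdm6bos under Kdm6b. Several members had a second partner, among them Slirp with Alkbh1, Gm26631 with Fam219b, Mapk8ip3 with Nme3 and Tulp2 with Ppp1r15a, a stress gene that averaged 20.1.

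Several coding members are known from cells that the sort was meant to leave out or from other organs. Cd72, a receptor of B cells, had 786.2, 916.3, 958.0 and 801.3 normalized counts under PBS and 819.4, 725.8, 901.9, 1195 and 860.6 under DOX. Prss57, a protease of neutrophil granules, had 1340, 1768, 2027 and 1004 under PBS and 1166, 1235, 1355, 1451 and 1467 under DOX. PBS replicate 4, the library with the highest sums of granulocyte and pan-immune markers, had the lowest Prss57 of all 9 libraries and did not have the highest Cd72, but it had the highest Sla2. Sla2, an adaptor protein of lymphocytes that lies over the end of Rab5if, had 720.2, 1092, 1195 and 1559 normalized counts under PBS and 808.2, 481.9, 907.0, 990.4 and 934.9 under DOX. The part of other cells in these levels was not tested. Nkx6-2, a homeobox gene of the brain, ranged from 631.0 to 1084, and Grin3b, a subunit of NMDA receptors, from 757.9 to 1310. Each of these members lay over an opposite-strand end, of Tesk1, Fstl3, Rab5if, Inpp5a and Tmem259 in turn. Because the strand setting of the count is not given, their values could belong to these partners, and this was not tested.

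Of 412 genes in 12 lists of roles that a lung fibroblast might show, such as collagens, matrix, secreted factors, immediate early genes, chaperones and glycolysis, 2 were members. They were Actb and, in the list of lipid metabolism and alveolar fibroblast genes, Gpc3, a glypican of the cell surface. Col1a1, which ranked among the 100, had been dropped by the rule. The lists held 5 of the partners of the members, namely Lama2, Ppp1r15a, Hspa1a, Rmrp and Cox5a. Among the dropped symbols were Polr2b, Gm45774, Lrrc61 and Ccdc152, on ranks 2, 3, 6 and 7. Genes opposite the dropped symbols were not counted, so these counts hold only for what the rule left. The members were thus, by name, mostly outside the lists drawn up for fibroblasts.

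Besides Actb, the members over no opposite-strand end were Pam, Gm44364, Kdelr2, Gpc3, Slc39a1 and Ubxn8. Pam, an enzyme that amidates secreted peptides, averaged 2189 normalized counts and lay 1405 bases from the end of Gin1. Kdelr2, the receptor that returns proteins to the endoplasmic reticulum, averaged 1209, Gpc3 averaged 1109 and Slc39a1, a zinc importer of the cell surface, 989. Ubxn8 averaged 906 and came within 145 bases of the end of Ppp2cb. Gm44364, annotated as a miRNA on chr6:136808543-136808683, averaged 2102, overlapped the span of an H2afj transcript on the other strand and was 1110 bases from the end of H2afj. PBS replicate 4 had the lowest value of all libraries for Gpc3, at 408.3 against 784.5 to 1749, for Kdelr2, at 593.9 against 867.1 to 1751, and for Slc39a1, at 364.6 against 848.2 to 1401. It had the highest for Gm44364, at 4540 against 1206 to 2458. The same library had the lowest sum of fibroblast markers, and the part of other cells in these values was not tested.

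Much of the membership was shared between libraries. Of the 90, 49 were among the 100 highest of all 9 libraries, and a ranking on a single library shared from 71 (PBS replicate 4) to 84 (PBS replicate 3) of the members. Ranking by the median over libraries shared 87 of them, and leaving out PBS replicate 4 shared 85. The last ranks inside were Ocel1 at 741.1, Tulp2 at 740.7 and Smarcd3 at 733.9, and the first outside were 9530082P21Rik at 727.3, Gadd45gip1 at 727.0 and Sdc4 at 726.9. Between the highest and the lowest library, values of a member differed by a median of 2.02 times, from 1.33 times for Gm9754 to 6.97 times for Ubxn11, and 43 members stayed under 2 times. Together the members took 32.9% to 36.8% of the summed values in the PBS libraries and 20.9% to 33.3% in the DOX libraries. With CT010467.1 left out of the sums, the ranges were 35.5% to 39.0% and 32.3% to 39.7% and overlapped widely.

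The comparison of DOX with PBS asked whether doxorubicin changed the highest genes of these fibroblasts. No member passed the test with the filter on low values. In limma with Benjamini-Hochberg adjustment, 0 of 90 members and 0 of all 2604 genes tested (0.0%) had an adjusted p under 0.05. Without adjustment 13 of 90 members had a p under 0.05, against 6.22% of all genes tested. On the higher side in DOX stood 3 of the 90 members, against 3.03% of all genes tested. On the lower side stood 10 of the 90 members, a larger part than the 3.19% of all genes tested. The members also had smaller standard errors, given below. With edgeR on the recovered reads 0 of 2618 genes passed and 5.69% had an unadjusted p under 0.05. With limma-voom 0 of 2618 genes passed as well, with 6.11% at an unadjusted p under 0.05. DESeq2 had no filter on low values, and over its 17172 genes 0 passed and 2.7% had an unadjusted p under 0.05. In bulk libraries of sorted cells, fewer cells of a type and less RNA per cell cannot be told apart.

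Members sat more often on the lower side under DOX, at a share near that of the genes next in rank. Means on the log2 scale were higher in DOX for 35 members and lower for 55 (61.1%), while 50.6% of all genes tested and 59.5% of ranks 101 to 500 were lower. The median log2 fold change was -0.11 for the members, -0.07 for ranks 101 to 500 and -0.01 for all genes tested. Without DOX replicate 2 the members' median was -0.05, with 38 higher, and that of all genes was 0.02. Without PBS replicate 4 the members' median was -0.10, with 34 higher. When reads were scaled by library totals alone, 17 members were higher and the median was -0.26, while that of all genes was -0.10, and DOX replicate 2 has the large share of CT010467.1 that enters those totals. Scaled to totals without CT010467.1, 40 members were higher and the median was -0.08, against 0.02 over all genes. The changes were small, from -0.77 to 1.09, with 54 members within 0.25 of 0 and 12 beyond 0.5. Their standard errors were small too, with a median of 0.22 against 0.51 over all genes tested.

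**Figure D4:**
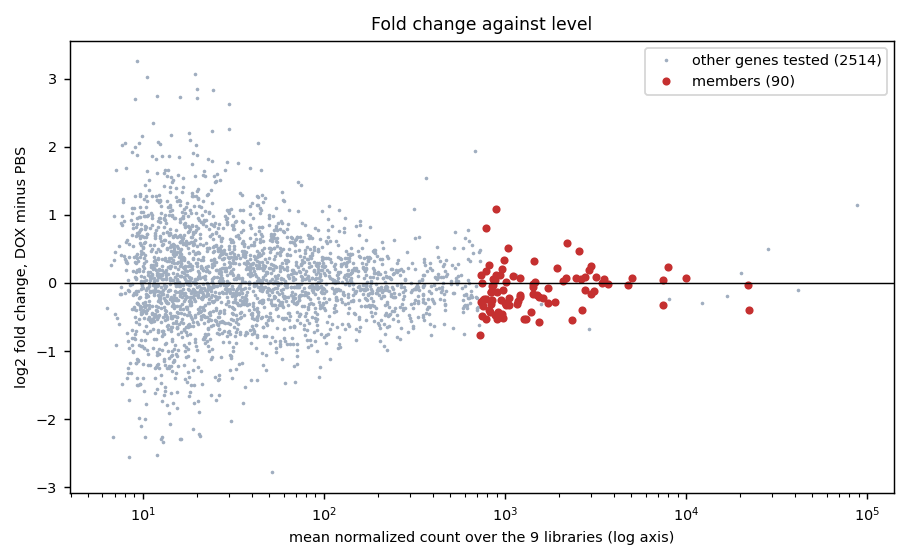
Each point is a gene tested, with its mean normalized count over the 9 libraries on a log x axis and its log2 fold change, DOX minus PBS, on the y axis; the 90 members are red. The members lie between -0.77 and 1.09, a narrower band than the genes of lower level.

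For 7 members (7.78%) every DOX library lay under every PBS library, and for 0 every DOX library lay above. Over all genes tested, the shares were 1.38% and 1.27%, together 2.65%. Among ranks 101 to 500, 2.5% lay wholly under and 1.25% wholly above. The 7 were Gm20721, Gm44170, Grtp1, Ltbp3, Ubxn8, Kdm6b and Smarcd3. With fewer libraries the groups of any gene overlap less often, and these shares rose too. Without PBS replicate 3, 11 members lay wholly under and 1 wholly above, against 2.31% and 1.99% of the genes tested. Without PBS replicate 4, 12 lay wholly under and 0 above, against 3.19% and 3.39%. Without DOX replicate 2, 8 lay wholly under and 0 above, against 1.98% and 1.66%. With PBS replicate 4 and DOX replicate 2 both left out, 13 lay wholly under and 0 above, against 4.2% and 4.63%. It is a description of order, since none of the 7 passed the adjusted test.

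Smarcd3 had the lowest p of all members. It encodes a subunit of the SWI/SNF chromatin remodelling complex, lies on the minus strand of chr5:24590818-24624411 and covers the end of Chpf2, whose last bases are printed above. Smarcd3 had 826.1, 890.9, 927.7 and 1135 normalized counts under PBS and 594.8, 425.8, 722.2, 667.8 and 415.0 under DOX. The groups did not overlap, with a log2 fold change of -0.77 (SE 0.22) and an adjusted p of 0.647 in limma. Chpf2, an enzyme of chondroitin chains, averaged 395 ± 136 (SD, n = 4) under PBS and 357 ± 146 (SD, n = 5) under DOX.

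Ubxn8, a protein of the endoplasmic reticulum membrane, had 1144, 1159, 1026 and 1032 normalized counts under PBS and 696.9, 841.9, 864.1, 661.8 and 731.5 under DOX. All of its DOX values were lower, by a log2 fold change of -0.53 (SE 0.18, adjusted p = 0.662, limma). Kdm6b, a demethylase of histone H3, had 849.1, 943.7, 863.3 and 856.4 under PBS and 701.5, 718.1, 454.5, 536.3 and 785.3 under DOX. Its PBS values lay close together and above each DOX value, with a log2 fold change of -0.49 (SE 0.21, adjusted p = 0.761, limma).

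Bysl, a factor of small ribosomal subunit assembly, lies over the end of the cyclin gene Ccnd3. Bysl had 3064, 2406, 3002 and 2898 normalized counts under PBS and 1729, 1653, 1808, 2151 and 2443 under DOX. Only DOX replicate 5 reached into the PBS range, and the log2 fold change was -0.55 (SE 0.18, adjusted p = 0.659, limma). Ccnd3 averaged 71.7 ± 42.2 (SD, n = 4) and 29.0 ± 20.0 (SD, n = 5), a log2 fold change of -1.28 (SE 0.49, adjusted p = 0.761, limma).

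Ulk4, a pseudokinase gene over the end of Ctnnb1, had 1527, 1810, 1089 and 1721 normalized counts under PBS and 1033, 758.7, 1300, 1133 and 1079 under DOX. PBS replicate 3 fell among the DOX values. BC024978, over the end of Itpkc, had 2826, 2018, 1460 and 1345 under PBS and 1171, 1320, 1590, 1161 and 985.1 under DOX, and here DOX replicate 3 stood above PBS replicates 3 and 4. Thra, the thyroid hormone receptor alpha gene, which ends over Nr1d1, the clock repressor Rev-erb alpha, had 1081, 1586, 1214 and 821.5 under PBS and 678.3, 710.3, 943.8, 1033 and 690.0 under DOX. The log2 fold changes of these 3 genes were -0.53, -0.57 and -0.52, with adjusted p of 0.761 each in limma. Gm20721, the highest member, had a log2 fold change of -0.40 (SE 0.17) and an adjusted p of 0.761. It passed at an adjusted p of 0.0100 when limma was fitted with no filter, where 3 of 17428 genes (0.0172%) passed and 2.63% had an unadjusted p under 0.05. In the other 21 fits its adjusted p ran from 0.528 to 0.986.

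Ccdc107 had the lowest p among the members that were higher in DOX. It lies on the plus strand of chr4:43492900-43495921, and its exons cover 124 bases of Rmrp, which was listed at 0. Rmrp lies on the minus strand of chr4:43492783-43493063 and is shorter than the window. The bases covered are on its 5′ side, and its 3′ end lies outside Ccdc107. Ccdc107 had 428.6, 349.4, 1194 and 365.4 normalized counts under PBS and 1152, 824.5, 849.8, 2044 and 883.7 under DOX. PBS replicate 3 stood above 4 of the DOX libraries, and the log2 fold change was 1.09 (SE 0.35, adjusted p = 0.659, limma), or 1.50 without that library.

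Cand2 had 1887, 1708, 2546 and 2282 under PBS and 2333, 3031, 2262, 2942 and 4219 under DOX, and B3gnt8 had 594.4, 865.6, 800.2 and 1031 and then 1013, 1074, 823.3, 1195 and 1938. The groups of both overlapped, with log2 fold changes of 0.47 and 0.52 and adjusted p of 0.761 each in limma. Gm48084, Pltp, Chid1 and Slc39a1 were also among the 8 higher members of lowest p, with log2 fold changes of 0.59, 0.33, 0.25 and 0.34 and adjusted p from 0.796 to 0.875. Slc39a1 turned to -0.05 without PBS replicate 4, the library in which it had its lowest value, 364.6.

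**Figure D5:**
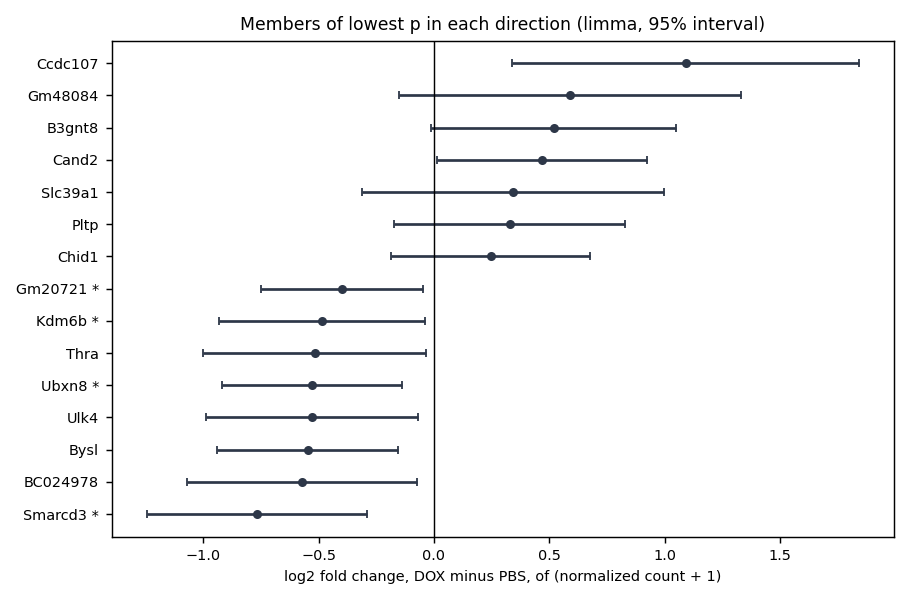
The points are log2 fold changes, DOX minus PBS, of 15 members among the 8 of lowest p in each direction, and the bars are 95% intervals of the limma fit, not adjusted for the number of genes. An asterisk marks a member whose 5 DOX libraries all lay under its 4 PBS libraries, as for Smarcd3 at -0.77.

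Partners that passed the filter and were no members did not pass the test either. Of 48, 26 were higher and 22 lower in DOX, 0 had an adjusted p under 0.05 and 4 had an unadjusted p under 0.05. Those 4 were Tesk1, Ccnd3, Pom121 and Ccnd2, and the lowest adjusted p was 0.662. The sign of the main partner matched that of its member in 28 of 45 pairs, a count given without a test since the pairs share libraries. Among the fibroblast role lists, 199 entries were tested, with genes shared between lists counted in each list. Of these entries 117 were higher, 82 lower and 0 passed, so the lists held no call beside which the members could be set.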

How the data were processed

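Lung fibroblasts of 4 PBS and 5 DOX mice were profiled by MARS-seq. According to the study's methods the authors aligned reads by STAR (mm10) and used HTSeq-count with a RefSeq annotation for gene counts. For tool versions, UMI collapse and the strand setting, no source used here gives an entry. The deposited values are a signal of normalized counts, reads divided by a size factor per library, and the values above 0 were whole multiples of 1 read within 0.001, so that whole reads were recovered for the count tests. Each table held 55421 lines, and repeats of 119 lines were summed to give 55302 symbols.

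The members and lists were chosen with earlier results of these data known. Symbols above 0 were matched to GENCODE M21 (98.3%) for position, strand and transcript ends. A total of 2604 genes, those with 4 or more libraries at a value of 10 or above, were tested on log2(value + 1) with limma 3.58.1 (trend, two-sided, Benjamini-Hochberg threshold 0.05), so fold changes understate low genes. Alternatives were edgeR 4.0.16 with TMM or library totals, DESeq2 1.42.0, limma-voom, other pseudocounts, filters, scalings and library weights, other rankings and windows, libraries left out and a replicate block. R 4.3.3 and Python 3.11.15 were used, and the code was tested on simulated data.

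Named genes were the 20 highest members, the 8 of lowest p in each direction, each pair over an opposite-strand end, up to 4 of the highest members of each role list and those beside rank 100, and a few of these genes are not reported here. Library pairs within a group differed by more than sampling noise (chi-square per degree of freedom from 10.1 to 60.8), so each counted as 1 replicate. Intervals cover the spread between these libraries.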

Additional observations from a re-analysis of the deposited data

Results flagged for a closer look

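Each member was looked at in both groups for a library far from the others, 180 looks in all, of which chance alone would flag about 1 in 20, and 12 stood apart. Under PBS, replicate 4 was high for Mtrex at 2927 normalized counts (others 1707 to 1905), Chaf1a at 1821 (1284 to 1371) and Ubxn11 at 2982 (619.4 to 920.5). PBS replicate 4 also had the highest sums of granulocyte, pan-immune and epithelial markers, and the part of those cells in the 3 values was not tested. PBS replicate 3 was high for Gm26619 at 3928 (3152 to 3264), Dnm2 at 1412 (849.1 to 941.0) and Ccdc107 at 1194 (349.4 to 428.6), and PBS replicate 2 for Kdm6b at 944 (849.1 to 863.3). Under DOX, replicate 4 was high for Ccdc107 at 2044 (824.5 to 1152) and 1700037C18Rik at 1149 (631.0 to 756.9). DOX replicate 5 was high for Mmp24 at 1260 (805.9 to 937.2) and Gm43126 at 1158 (477.0 to 666.3) and low for Gm44709 at 1216 (1655 to 1745). Of the 12, 11 were the highest and 1 the lowest of their group.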

How the results depend on the processing

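No setting but one gave a call: with no filter on low values, 3 genes passed in limma, CT010467.1, Gm17300 and the member Gm20721, with its log2 fold change still -0.40 and 1 member called. The number of members higher in DOX was 35, and 17 with edgeR on library totals, where the median log2 fold change of the members was -0.26 in place of -0.11. Scaled to totals without CT010467.1, 40 were higher and the median was -0.08. Leaving out one library in turn gave 30 to 38 members higher, medians from -0.15 to -0.05, and 8 to 12 members whose groups did not overlap, against 7 with all libraries, the 12 coming without PBS replicate 3 (11 under and 1 above) and without PBS replicate 4. Over all genes tested in the same sets, between 3.64% and 6.58% did not overlap, against 2.65% with all libraries. With PBS replicate 4 and DOX replicate 2 both left out, 13 did not overlap, against 8.82% of all genes tested, 38 were higher and 0 passed. With one library left out, Slc39a1 ran from -0.05 to 0.54, and it turned to -0.0468 without PBS replicate 4 and to -0.0471 without both. Over 16 members, the 8 of lowest p in each direction, and 21 settings each, 333 of 336 values kept their direction and their side of the threshold. Same-numbered libraries had correlations of deviations from 0.02 to 0.07, but differently numbered ones were not compared, so pairing by number was not tested. A fit with the replicate number as a block, which leaves out DOX replicate 5, called 0 genes. It gave 31 members higher, a median of -0.09 and 9 that did not overlap, as did those 8 libraries without the block. That match was fixed in advance, since both groups held the same replicate numbers and overlap was counted on values without the block. The number of members over an opposite-strand end was 81 to 85 over the windows tried.

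Each member had at least 171 reads in every library, a counting error of at most 7.65%, and the groups held 4 and 5 libraries. The strand setting of the count and the annotation used by the authors bear on every level here, and their part was not tested. Symbols were placed with GENCODE M21, while the study's methods name a RefSeq annotation.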
